A study of Mus musculus with 6 samples.

Results

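The clustered protocadherins were followed in the postnatal cortex as every gene of the table whose symbol starts with Pcdha, Pcdhb or Pcdhg and goes on with an isoform number or with a, b or c and a number. This gave 58 of the 24972 genes, namely 12 alpha genes, 22 beta genes, 12 genes of the gamma a and 7 of the gamma b subfamily, and 5 c-type genes (Pcdhac1, Pcdhac2, Pcdhgc3, Pcdhgc4 and Pcdhgc5). RNA was sequenced from whole dissected cortices of mice at postnatal day 7, to ask how loss of Zmiz1, a transcriptional coregulator, alters gene expression in the developing cortex. The 3 wildtype libraries are from Zmiz1 f/f mice without Cre, and the 3 libraries labelled Zmiz1-KO (KO-labelled libraries) are from Zmiz1 f/f;Emx1-Cre mice, so both groups carry the floxed allele. Emx1-Cre acts in the progenitors of cortical glutamatergic neurons and astrocytes, whereas cortical interneurons, microglia and vessels come from other lineages and keep the gene. The labels speak both of cortex and of isolated progenitors, and the extraction text and the study's methods name the dissected cortex. They do not say whether each library is a separate animal, so the p values measure the spread between these libraries.

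Protocadherins are adhesion proteins of the cadherin superfamily. Each alpha or gamma gene has a large first exon of its own, with its own promoter, that encodes the outer cadherin repeats, the membrane span and the first part of the tail, and this exon is spliced to constant exons shared by all genes of its cluster. Beta genes lie between the alpha and gamma clusters and have no constant exons. Individual neurons choose a few alpha, beta and gamma genes at random and read them from single alleles, whereas the c-type genes are switched on more uniformly. Isoforms pair as dimers in one membrane and bind the same set on a facing membrane, which lets a neuron tell its own branches from those of its neighbors. CTCF and cohesin loop distal enhancers to the chosen promoter, and DNA methylation and histone marks silence the others.

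On chromosome 18 of the mouse genome (mm10, which is GRCm38) the 58 genes lie on the plus strand within 911.6 kb. In RefSeq, Pcdha1 is the first and Pcdhgc5 the last of them in this order. The 14 genes of the alpha cluster (12 alpha, Pcdhac1 and Pcdhac2) share 3 constant exons of 59, 89 and 2712 bases, of which the last spans 37184946 to 37187657. The 22 genes of the gamma cluster share 3 constant exons of 59, 89 and 1968 bases, of which the last spans 37839903 to 37841870 in the stretch common to all of them in GENCODE. The ends that RefSeq gives single gamma genes can differ from this end. The shared exons add up to 2860 bases in the alpha and 2116 bases in the gamma cluster. A read that falls wholly in them cannot tell which gene it comes from, and how the authors' counting treated such reads is not stated in the sources used here. As a measure of this, the median share of a gene's 75-base stretches that also occur in another annotated gene was 58.1% in alpha, 44.5% in gamma a, 48.6% in gamma b, 48.0% among the c-type genes and 1.23% in beta. The values of single alpha and gamma genes are therefore less certain than those of most beta genes, among which Pcdhb12 stands apart with 62.9%.

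Zmiz1 itself had 8119, 7929 and 7461 normalized counts in wildtype and 9944, 9779 and 9660 in KO-labelled libraries, which is higher, not lower, in the group with the deletion label (log2 fold change 0.32, SE 0.040, limma adjusted p = 0.00125). The table holds 1 value per gene, so RNA of the recombined and of the intact allele cannot be told apart, and whether the labels are right cannot be told from these values. The groups are therefore named by their labels, and every direction given here rests on them. The values of a library summed to 32661979 to 33239707 after the authors' normalization, and dividing by its most common low value, 1.83 to 2.11, gave 15494889 to 17858391 per library. This is only a rough guide to the counted reads, since the value of 1 read could not be established. Protocadherins of the clusters took 0.156 to 0.164% of each sum. Xist, the RNA of the inactive X chromosome, was high in 1 library of each group, at 25307 normalized counts in wildtype replicate 3 and 24403 in KO-labelled replicate 2. The Y-linked gene Ddx3y was at 0 and 1.89 in these and at 1250 to 1483 in the remaining libraries. Each group thus holds libraries of both sexes, which are not repeats of a single animal, while the table does not show whether the male libraries of a group are separate animals.

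Summed over the family, the groups overlapped, and the genes that passed the test lie at its opposite ends. Pcdhgc5 was higher and Pcdha1 lower in KO-labelled libraries. These were the only 2 of 57 tested members to pass the test (limma, Benjamini-Hochberg adjusted over 15800 genes with a normalized count of at least 10 in at least 3 libraries), or 3.51%, where 65 of all tested genes, 0.411%, passed. The remaining gene, Pcdhb1, was nearly silent. It had 2.03, 2.12 and 6.19 normalized counts in wildtype and 3.97, 3.64 and 4.01 in KO-labelled libraries, and was not tested.

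**Figure D1:**
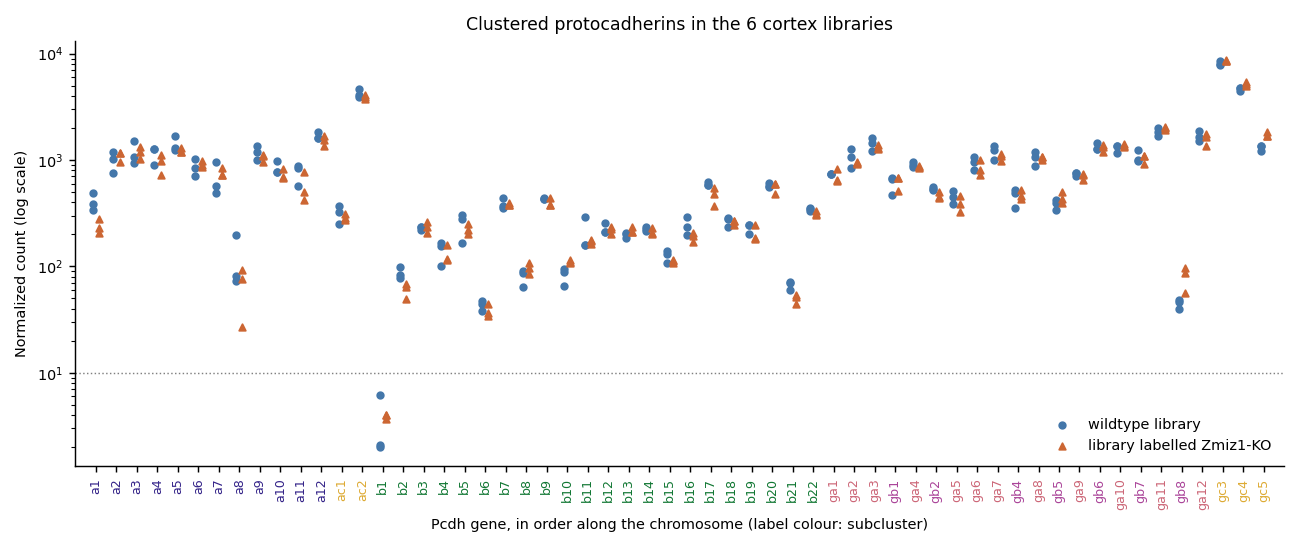
Normalized counts (log axis) of the 58 clustered protocadherins in each of the 3 wildtype libraries (circles) and the 3 KO-labelled libraries (triangles), in order along the chromosome. The genes span from about 2 normalized counts for Pcdhb1 to 8704 for Pcdhgc3 in its highest library, and at most genes the circles and triangles overlap. The dotted line marks a value of 10.

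Pcdhgc5 is the last c-type gene of the gamma cluster, running from 37819546 to 37841873 in RefSeq, from its own first exon to the constant exons. It had 1341, 1354 and 1228 normalized counts in the wildtype libraries and 1677, 1685 and 1837 in those labelled Zmiz1-KO. The groups did not overlap, and the lowest value with the Zmiz1-KO label lay well above the highest in wildtype. Its mean rose from 1307 ± 69.3 to 1733 ± 90.0 normalized counts (SD, n = 3 each), with a log2 fold change of 0.41 (SE 0.059, 95% confidence interval 0.28 to 0.53, limma adjusted p = 0.00385). Leaving out 1 library at a time gave log2 fold changes of 0.36 to 0.43. The call was lost without KO-labelled replicate 3 (limma adjusted p = 0.0728). A single gene compared by an exact permutation test of 3 libraries against 3 cannot give a p below 0.1. In bulk tissue, a change in the number of cells that express a gene and a change in RNA per cell cannot be told apart.

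The neighbors of Pcdhgc5 in the gamma c-type group gave smaller differences. Pcdhgc4, which is required for the survival of interneurons after birth, had 4781, 4768 and 4446 normalized counts in wildtype and 5384, 5219 and 4930 in KO-labelled libraries. Its groups did not overlap either, but the log2 fold change of 0.15 (SE 0.046) did not pass the test (limma adjusted p = 0.216). Pcdhgc3, which has been tied to dendrite branching through Axin1, had 7815, 8562 and 8056 normalized counts in wildtype and 8704, 8467 and 8479 in KO-labelled libraries. Its groups overlapped (log2 fold change 0.07, limma adjusted p = 0.561). Pcdhgc5 made up 9.62, 9.22 and 8.94% of the summed gamma c-type counts in wildtype and 10.6, 11.0 and 12.0% in KO-labelled libraries. Pcdhgc3 made up 56.1, 58.3 and 58.7% of the same sum in wildtype and 55.2, 55.1 and 55.6% in KO-labelled libraries. The share of Pcdhgc4 was 33.1 ± 1.09% in wildtype against 33.5 ± 0.995% (SD, n = 3). Within the gamma c-type group the share of Pcdhgc5 was thus higher and that of Pcdhgc3 lower in each library with the Zmiz1-KO label, without overlap, while the shares of Pcdhgc4 overlapped. The shares of a library add up to a whole, so they are not independent of each other. They are also computed from the same values as the fold changes and are not separate evidence.

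The c-type genes of the alpha cluster did not pass the test. Pcdhac2, the isoform through which serotonergic axons space themselves, had 4643, 4074 and 3873 normalized counts in wildtype and 3723, 4093 and 3922 in KO-labelled libraries. Pcdhac1 had 326, 250 and 370 in wildtype and 271, 314 and 287 in KO-labelled libraries. In both genes the groups overlapped, with log2 fold changes of -0.10 for Pcdhac2 (limma adjusted p = 0.617) and -0.10 for Pcdhac1 (limma adjusted p = 0.847). Summed over the gamma c-type genes, the libraries had 13936, 14683 and 13729 normalized counts in wildtype and 15765, 15371 and 15245 in those labelled Zmiz1-KO, higher in each of the latter by a mean of 9.52%. The summed alpha c-type genes overlapped, at 4512 ± 398 against 4204 ± 206 (SD, n = 3).

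**Figure D2:**
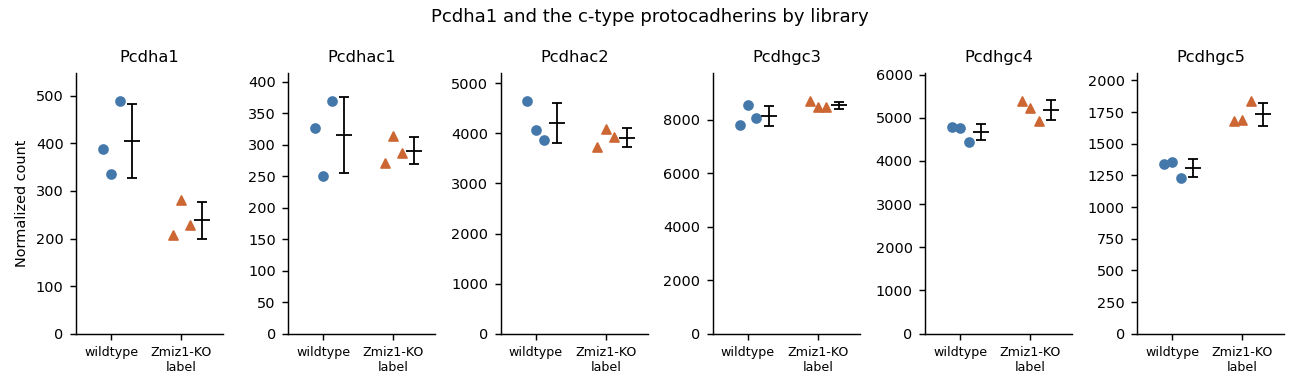
Normalized counts of Pcdha1 and of the c-type genes in each library, with the mean and SD of each group of 3 beside the points, on an axis from 0 for each gene. Pcdhgc5 and Pcdhgc4 are higher and Pcdha1 is lower in all 3 KO-labelled libraries, whereas the groups overlap for Pcdhac1, Pcdhac2 and Pcdhgc3.

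Pcdha1, the first gene of the alpha cluster, runs from 36930285 to 37187657, from its own first exon to the constant exons. It had 389, 336 and 489 normalized counts in wildtype and 206, 281 and 228 in KO-labelled libraries, with no overlap between the groups. The mean fell from 405 ± 77.6 to 238 ± 38.2 (SD, n = 3 each), with a log2 fold change of -0.76 (SE 0.15, 95% confidence interval -1.07 to -0.44, limma adjusted p = 0.0444). This call lay close to the threshold and rested on single libraries. It was lost without wildtype replicate 1 (limma adjusted p = 0.131), wildtype replicate 3 (0.0969), KO-labelled replicate 1 (0.213) or KO-labelled replicate 3 (0.314), and also with limma-voom (adjusted p = 0.0763) and without robust estimation (limma adjusted p = 0.110). Leaving out 1 library at a time gave log2 fold changes of -0.88 to -0.61. Of the 75-base stretches of Pcdha1, 58.2% also occur in other genes, so part of its value may come from reads of the shared exons. Within the summed alpha counts, Pcdha1 took 3.17, 3.20 and 4.43% in wildtype and 1.95, 2.84 and 2.19% in KO-labelled libraries, without overlap. This share is computed from the same Pcdha1 values and is not separate evidence.

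The other alpha genes did not pass the test, and their libraries differed widely within a group. Of the 12 alpha genes, 8 had log2 fold changes below 0 and 4 above, with a median of -0.18. Over all tested genes, 50.1% were below 0. Pcdha8, the tested alpha gene with the lowest level, had 72.4, 81.3 and 195 normalized counts in wildtype and 75.4, 92.6 and 27.2 in KO-labelled libraries. Its log2 fold change of -0.85 was larger in size than that of Pcdha1, but the groups overlapped, and wildtype replicate 3 and KO-labelled replicate 3 lay apart from the rest of their groups (limma adjusted p = 0.726). Pcdha11 also overlapped, with 848, 876 and 564 in wildtype and 495, 772 and 423 in KO-labelled libraries (log2 fold change -0.46, limma adjusted p = 0.700). Pcdha12, the alpha gene with the highest level, had 1848, 1620 and 1623 in wildtype and 1677, 1346 and 1527 in KO-labelled libraries, and the groups overlapped (log2 fold change -0.17, limma adjusted p = 0.485). Pcdha7, chosen after its values were seen, had 489, 565 and 966 normalized counts in wildtype and 833, 717 and 727 in KO-labelled libraries. Wildtype replicate 3 stood apart, and Pcdha7 passed the test with a positive log2 fold change of 0.53 when that library was left out, but not without any other 1 library (limma adjusted p = 0.0356).

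**Figure D3:**
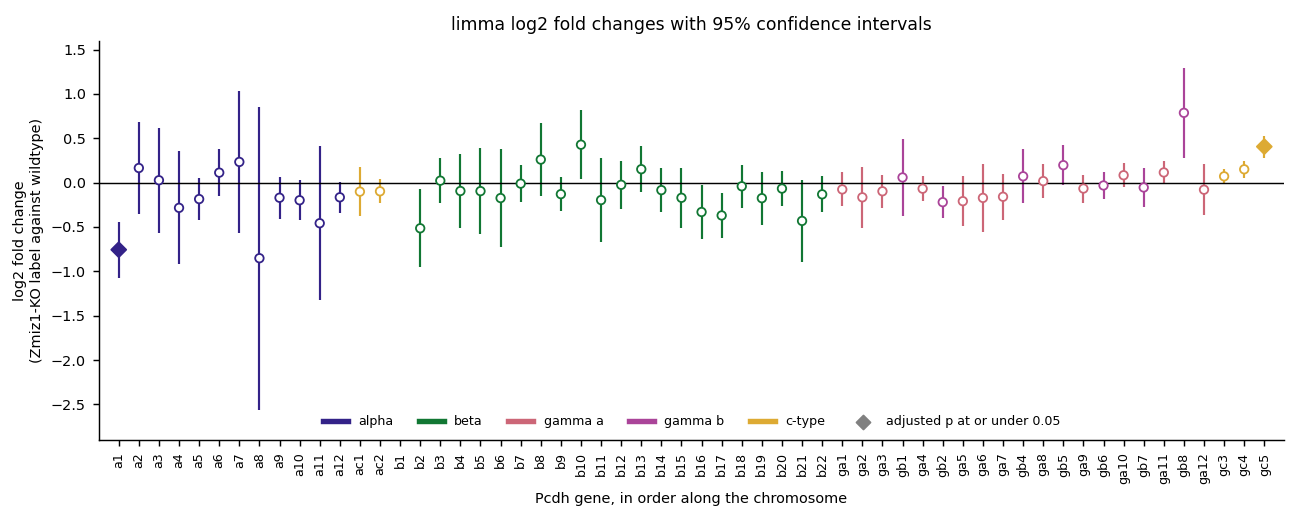
Log2 fold changes (KO-labelled libraries against wildtype, limma on log2(value + 1)) of the 57 tested clustered protocadherins with 95% confidence intervals, in order along the chromosome and colored by subcluster. Filled diamonds mark Pcdha1 (-0.76) and Pcdhgc5 (0.41), the only genes with an adjusted p at or under 0.05. Pcdhb1 was not tested and has no point.

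No beta gene passed the test (limma), and 0 passed with limma-voom. An unadjusted p under 0.05 was found in 4 of the 21 tested, against 11.0% of all tested genes. Beta proteins join the same dimers as the alpha and gamma proteins but lack their constant tail. The log2 fold change was below 0 in 17 of the 21 tested beta genes and above 0 in 4, with a median of -0.10. Over all tested genes, 50.1% were below 0. Pcdhb2 had 82.5, 99.3 and 78.3 normalized counts in wildtype and 49.6, 63.9 and 68.5 in KO-labelled libraries, without overlap (log2 fold change -0.51, limma adjusted p = 0.360). Pcdhb10 lay the other way, with 94.6, 65.4 and 88.5 in wildtype and 107, 115 and 109 in KO-labelled libraries, also without overlap (log2 fold change 0.43, limma adjusted p = 0.401). Pcdhb8, among the most positive log2 fold changes of the family at 0.26, had overlapping groups (limma adjusted p = 0.678). At the ends of the beta range, Pcdhb20 had the highest level, 576 ± 23.0 against 553 ± 67.9 normalized counts (SD, n = 3; log2 fold change -0.07, limma adjusted p = 0.858). Pcdhb6 had the lowest level of the tested beta genes, with 44.2, 37.9 and 47.4 in wildtype and 44.6, 33.8 and 36.4 in KO-labelled libraries (log2 fold change -0.17, limma adjusted p = 0.872).

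Among the 21 tested genes of beta, the largest subcluster, the groups were apart in some, with KO-labelled libraries higher in 2 and lower in 4. Over all tested members, the groups did not overlap in 11 of 57 genes, or 19.3%, against 16.3% of all tested genes, so the share was near the background. In 5 of them, or 8.77% against 8.1% of all genes, the KO-labelled libraries were higher (Pcdhgc5, Pcdhgc4, Pcdhgb8, Pcdhb10 and Pcdhb13). In 6, or 10.5% against 8.16%, they were lower (Pcdha1, Pcdhb2, Pcdhb17, Pcdhb21, Pcdhb22 and Pcdhgb2). Pcdhb13, Pcdhb17, Pcdhb21, Pcdhb22 and Pcdhgb2 are named here because their groups did not overlap, thus after their values were seen. Of these, Pcdhb17 had the smallest adjusted p, with 621, 584 and 581 normalized counts in wildtype and 482, 544 and 371 in KO-labelled libraries (log2 fold change -0.37, limma adjusted p = 0.255). It passed when KO-labelled replicate 2 was left out (limma adjusted p = 0.0364). An unadjusted p under 0.05 was found in 9 of 57 members, or 15.8%, against 11.0% of all tested genes.

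In the gamma a subfamily no gene passed the test (limma, smallest adjusted p = 0.517), and 0 passed with limma-voom. An unadjusted p under 0.05 was found in 0 of 12, against 11.0% of all tested genes. Log2 fold changes were below 0 in 9 of the 12 genes, against 50.1% of all tested genes. Pcdhga11, the highest of them, had 1833 ± 162 normalized counts in wildtype and 1981 ± 56.3 in KO-labelled libraries (SD, n = 3; log2 fold change 0.12, limma adjusted p = 0.517). Pcdhga5, the lowest, had 454, 384 and 508 in wildtype and 326, 458 and 384 in KO-labelled libraries (log2 fold change -0.21, limma adjusted p = 0.604). The groups overlapped in both genes.

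In the gamma b subfamily no gene passed the test (limma), and 0 passed with limma-voom. An unadjusted p under 0.05 was found in 2 of 7, against 11.0% of all tested genes. Here 3 log2 fold changes were below 0 and 4 above. Pcdhgb6, the highest, was at 1324 ± 99.8 normalized counts in wildtype and 1296 ± 103 in KO-labelled libraries (SD, n = 3; log2 fold change -0.03, limma adjusted p = 0.918). Pcdhgb8, the lowest, is annotated in RefSeq as a transcribed pseudogene. It had 46.1, 40.0 and 48.5 normalized counts in wildtype and 56.6, 85.8 and 97.2 in KO-labelled libraries, without overlap. At 0.79 (SE 0.24) its log2 fold change was the most positive of the family, but its low level left a wide 95% confidence interval of 0.28 to 1.30, and it did not pass the test (limma adjusted p = 0.216).

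Summed over subclusters, the c-type genes were higher in each KO-labelled library than in any wildtype library, by a small amount, and the sums of the other subclusters overlapped. The c-type sum includes Pcdhgc5, which passed the test, and does not show a shift of all its genes. Of the 5 c-type genes, the 3 of the gamma cluster had log2 fold changes above 0. Pcdhac1 and Pcdhac2 had log2 fold changes below 0. The alpha genes summed to 11267 ± 913 normalized counts in wildtype and 10292 ± 356 in KO-labelled libraries (SD, n = 3; log2 ratio of the means -0.13). The beta sum was 5039 ± 255 against 4653 ± 204 (log2 ratio -0.11), the gamma a sum 13291 ± 720 against 12801 ± 142 (-0.05) and the gamma b sum 4420 ± 275 against 4404 ± 285 (-0.01). The c-type sum was 18628 ± 571 against 19664 ± 181 (log2 ratio 0.08). With Pcdhac1 and Pcdhac2 included, the alpha cluster summed to 17243, 14816 and 15278 in wildtype and 14566, 14299 and 14624 in KO-labelled libraries, lower without overlap. The gamma cluster as a whole overlapped, at 31827 ± 804 against 32665 ± 339 (SD, n = 3). All 58 genes together summed to 52646 ± 1591 in wildtype and 51814 ± 602 in KO-labelled libraries, a difference of -1.58% with overlapping groups. The c-type genes made up 35.4% of this sum in wildtype and 38.0% in KO-labelled libraries. These sums were not tested, since their members were chosen.

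**Figure D4:**
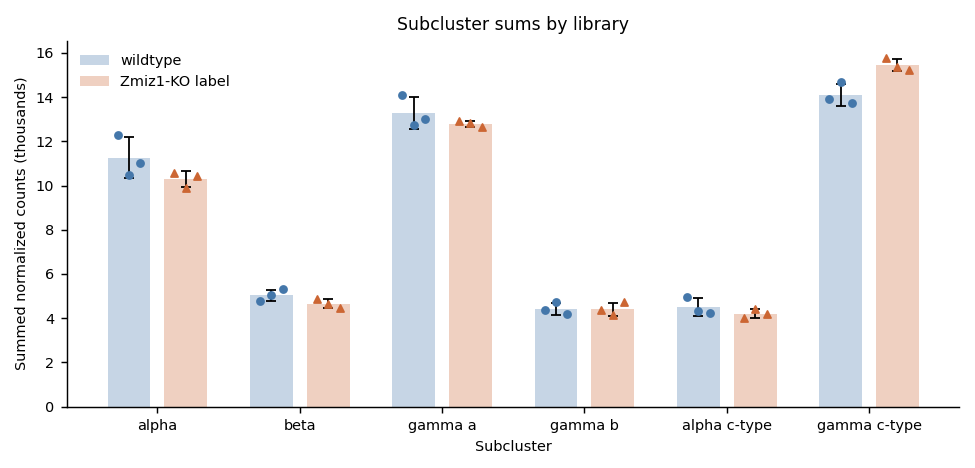
Summed normalized counts, on an axis in units of 1000, of the alpha, beta, gamma a and gamma b genes and of the c-type genes of the alpha and gamma clusters, with bars from 0 for the group means, error bars for the SD of 3 libraries and a point for each library. Only the gamma c-type sums are without overlap, at 14116 ± 502 in wildtype and 15460 ± 271 in KO-labelled libraries.

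More members had log2 fold changes below than above 0. The log2 fold change was below 0 in 39 of 57 tested members, or 68.4%, against 50.1% of all tested genes. Its median was -0.08 over the members and -0.00018 over all tested genes. The members come from the same libraries, and those of the alpha and of the gamma cluster also share constant exons within their cluster, so they are not independent of each other. For this reason the count is a description and carries no test. Leaving out 1 library at a time gave 37 to 41 of 57.

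Levels of the genes were compared per kilobase of annotated exons, averaged over all 6 libraries. The c-type genes had the highest median, 689 normalized counts per kb, followed by gamma a with 215, alpha with 173, gamma b with 103 and beta with 42.4. Among single genes, Pcdhgc3 led with 1518 per kb, and Pcdhgc4 with 879 and Pcdhac2 with 689 came next. Pcdhgc5, at 199 per kb, and Pcdhac1, at 55.9 per kb, lay within the range of the alpha and gamma genes. Thus 3 of the 5 c-type genes lay above every alpha, beta and gamma a or b gene. Divided by the length of the exon sequence that no other member shares, the medians were 1339 for c-type, 377 for gamma a, 356 for alpha, 181 for gamma b and 42.4 for beta, in the same order. The distance from alpha to gamma a in this order is small beside the range within each, 17.0 to 301 per kb in alpha and 89.8 to 401 per kb in gamma a.

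The alpha genes had larger SDs between libraries of 1 group than most genes at the same level. Among the 7809 tested genes with mean normalized counts of 300 to 3000, the median SD within groups was 0.078 on the log2 scale. It was 0.25 for the 11 alpha genes at this level, of which 11 lay above that median. The median SD was 0.15 for the 12 gamma a genes (11 above), 0.17 for the 6 gamma b genes (6 above), 0.11 for the 5 beta genes (4 above) and 0.15 for the 2 c-type genes (1 above). Over all tested genes of a subcluster, also those outside this level, the median SD was 0.26 for alpha and 0.15 for gamma a. It was 0.17 for gamma b, 0.14 for beta and 0.076 for c-type. The sums, which hold all genes of a subcluster, varied less than these medians. Their SD within groups on the log2 scale was 0.089 for alpha, 0.056 for gamma a, 0.091 for gamma b, 0.068 for beta and 0.033 for c-type. The shares of stretches held in common, given above, are also higher in alpha and gamma than in beta, and their part in this spread was not tested.

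**Figure D5:**
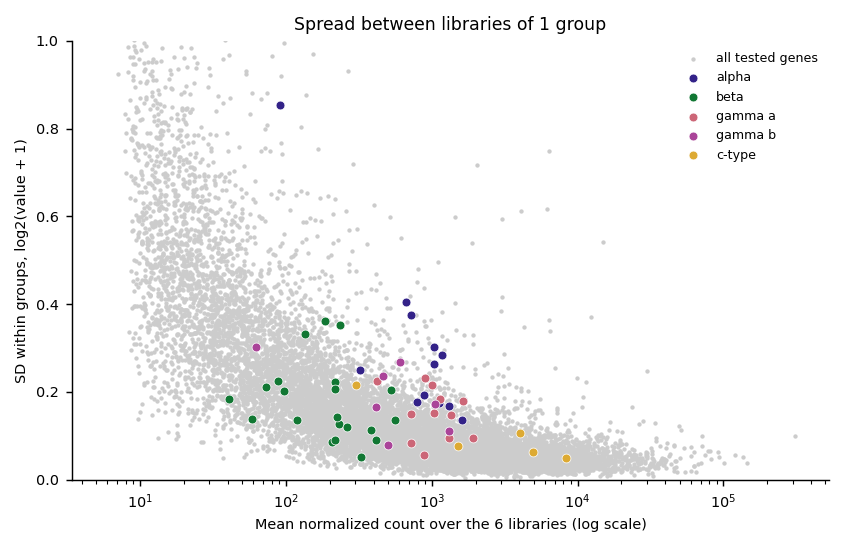
SD of log2(value + 1) within groups against the mean normalized count (log axis) for all tested genes (grey) and the clustered protocadherins (colored by subcluster). Alpha genes near 1000 normalized counts lie toward the upper edge of the grey cloud, with a median SD of 0.25 against 0.078 for all genes at 300 to 3000; 159 tested genes with an SD above 1 are not drawn.

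Several annotated genes overlap or lie between the clusters. Gm37013, Gm38666 and Gm38667 start in the first exons of Pcdha4, Pcdha6 and Pcdha7 and end in RefSeq at 37841873, as Pcdhgc5 does, with the last constant exon of the gamma cluster, so they share sequence with members of both clusters. Gm37013 had 16.0, 15.8 and 91.7 normalized counts in wildtype and 15.9, 186 and 68.0 in KO-labelled libraries, with low and high libraries in both groups (limma adjusted p = 0.855). Gm38666 had 102, 92.5 and 110 in wildtype and 34.7, 76.9 and 150 in KO-labelled libraries (limma adjusted p = 0.845). Gm38667 had 103, 183 and 143 in wildtype and 211, 109 and 126 in KO-labelled libraries (limma adjusted p = 0.984). Between the beta and gamma clusters lie Taf7, a subunit of the general transcription factor TFIID, and Slc25a2, a mitochondrial carrier. Taf7 had 385, 441 and 383 normalized counts in wildtype and 368, 361 and 389 in KO-labelled libraries, with overlap (log2 fold change -0.11, limma adjusted p = 0.736). Slc25a2 was under the minimum for testing, at 2.00 to 8.26.

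Genes that act on the clusters or with their proteins were read from 4 lists, and 0 genes of each passed the test (limma) or passed with limma-voom. Over all tested genes, 50.1% had a log2 fold change below 0 and 11.0% an unadjusted p under 0.05. Of 11 genes for CTCF, cohesin and the factors that load or release it, 1 was higher and 10 were lower by log2 fold change, and 1 had an unadjusted p under 0.05. Smc3, a cohesin subunit, had the largest difference, 2231 ± 58.0 against 2011 ± 74.8 normalized counts (SD, n = 3; log2 fold change -0.15, limma adjusted p = 0.242), while Ctcf was at -0.05 (limma adjusted p = 0.756). Of 17 modifiers of DNA and histones, among them Smchd1, Dnmt3b and Setdb1, 8 were higher and 9 lower, and 4 had an unadjusted p under 0.05. Cdca7, a partner of the remodeler Hells in DNA methylation, differed most, 297 ± 6.53 against 388 ± 23.6 (SD, n = 3; log2 fold change 0.38, limma adjusted p = 0.123). Of 17 partners and effectors of protocadherins, such as the kinases Ptk2 and Ptk2b and the WAVE complex, 2 were higher and 15 lower, and 2 had an unadjusted p under 0.05. The largest difference was that of Nlgn1, a postsynaptic adhesion protein, at 3243 ± 133 against 2987 ± 33.7 (SD, n = 3; log2 fold change -0.12, limma adjusted p = 0.331).

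The 12 protocadherins outside the clusters, which are single genes with promoters of the usual kind, were also read beside the family. Of these, 3 were higher and 9 lower, where 50.1% of all tested genes were lower. An unadjusted p under 0.05 was found in 2, against 11.0% of all tested genes. Pcdh20 had the largest difference, 585 ± 80.8 normalized counts in wildtype against 450 ± 56.4 in KO-labelled libraries (SD, n = 3; log2 fold change -0.38, limma adjusted p = 0.216). Its groups did not overlap, and it had the smallest adjusted p of this list.

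The summed markers of several cell types differed between the groups without overlap. Over all tested genes, 50.1% had a log2 fold change below 0. Summed interneuron markers (Gad1, Gad2, Slc32a1, Lhx6 and Dlx1) ran from 12485 to 16583 normalized counts in wildtype and from 16689 to 18797 in KO-labelled libraries, with 5 of 5 higher by log2 fold change. Summed markers of meningeal fibroblasts ran from 14516 to 17595 and from 19241 to 21235, with 5 of 5 higher, and Col1a2, a collagen gene, passed the test (log2 fold change 0.32, limma adjusted p = 0.00464). Markers of striatal projection neurons summed to 6921 to 9595 in wildtype and 9800 to 10969 in KO-labelled libraries, again with 5 of 5 higher. Lower sums without overlap were found for the oligodendrocyte lineage (11041 to 12511 against 10236 to 10814, 4 of 5 genes lower), microglia (2951 to 3177 against 2896 to 2937, 3 of 5 lower) and serotonergic neurons (146 to 192 against 120 to 129, 2 of 2 tested lower). In the last list the defining factor Fev was at 0 in all libraries except KO-labelled replicate 2, at 1.83, and was not tested. This sum thus rests on low values of Tph2 and Slc6a4 and does not show that serotonergic neurons are in the tissue. Sums of cortical glutamatergic neurons (34922 to 39413 against 34663 to 36327, 6 of 6 genes lower), astrocytes (56433 to 61149 against 50860 to 58612, 4 of 5 lower), endothelial cells (5137 to 5371 against 5280 to 5643, 3 of 5 higher) and choroid plexus (262 to 8313 against 299 to 4801, 5 of 5 lower) overlapped. Among the astrocyte markers the water channel Aqp4 passed the test (log2 fold change -0.29, limma adjusted p = 0.00499). The marker lists were chosen with earlier results of these data known, so the calls of Aqp4 and Col1a2 are descriptions and not independent evidence. No marker was listed at 0 in all libraries. All 6 glutamatergic markers were above the minimum for testing, as the cortex label implies. The part of these shifts in the values of Pcdhgc5, Pcdha1 and the c-type sum was not tested.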

How the data were processed

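Total RNA of dissected cortices was made into TruSeq v2 libraries, per the labels, with a kit that does not mark strand. The authors aligned the reads to mm10 with STAR in Illumina BaseSpace and deposited gene counts normalized by DESeq2, a signal per gene and library called normalized counts here, since the values are not whole. Tool versions, gene annotation and counting method are not given in the sources used here. Of the values close to the most common low value, only 22.5% lay within 0.1% of it in the median library. Whole reads were therefore not recovered and count models were not run.

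Genes reaching 10 normalized counts in 3 or more libraries were tested on log2(value + 1) with limma (version 3.58.1, R version 4.3.3; trend and robust estimation, two-sided, Benjamini-Hochberg adjustment over 15800 genes, threshold 0.05). Log2 fold changes are on this scale and understate changes of low genes. The procedure was tested on simulated data. Precision rests on 3 libraries per group and on a depth that is known only roughly.

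Coordinates and gene order are from RefSeq (58 genes matched), and exons and 75-base stretches from GENCODE release M21, with 2 genes (Pcdha10 and Pcdha11) matched by their first exon. No sequence is shown. The members and lists were chosen with earlier results of these data known. Named genes are the called members, the highest and lowest of each subcluster, all c-type genes, the 4 most positive and 4 most negative log2 fold changes, genes lying between the clusters, and the gene of each list with the largest change. Alternatives were limma-voom, median-ratio scaling, other filters and pseudocounts, no robust estimation, a replicate block, each library left out, sums without the highest member, and unshared exon length. Plots used matplotlib 3.10.9 under Python 3.11.15.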

Additional observations from a re-analysis of the deposited data

How the results depend on the processing

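Of the 57 tested clustered protocadherins, 2 passed the test, and with limma-voom or without robust estimation 1 did. With each library left out in turn the count was 0 to 3, with 0 without replicate 3 labelled Zmiz1-KO. Over all tested genes, 65 passed, 17 without robust estimation and 12 to 152 with each library left out, so calls near the threshold depend on single libraries. Same-numbered libraries did not deviate together (r = -0.0051, -0.11 and -0.0063 across genes), and differently numbered ones reached r = 0.11. These values give no sign that the numbers pair the libraries. They cannot exclude a pairing. Deviations were taken from the mean of each group of 3, so those of a group sum to 0 in every gene. A negative r for some pairs therefore comes with a positive r for others. With the replicate block, 168 genes and 3 members (Pcdha1, Pcdha4 and Pcdhgc5) passed. By Xist and Ddx3y, this block joins libraries of unlike sex in replicates 2 and 3. Sex was not used as a covariate in any fit. Other filters, scaling, robustness and the block leave a log2 fold change as it is and can alter only its p. Of the 18 named members, 3 changed sign when a library was left out, at values near 0. With each library left out, the log2 fold change ran from -0.26 to 0.022 in Pcdhac1 (above 0 without wildtype replicate 3), from -0.12 to 0.039 in Pcdhb20 (above 0 without replicate 2 labelled Zmiz1-KO) and from -0.079 to 0.034 in Pcdhgb6 (above 0 without replicate 1 labelled Zmiz1-KO or wildtype replicate 3). Pcdha1 lost its call in 6 and Pcdhgc5 in 1, with values given above. The size factors computed again were all 1, so median-ratio scaling changed no value. The log2 ratio of the summed alpha genes was -0.18 to -0.065 with each library left out, that of the beta genes -0.15 to -0.077 and that of the c-type genes 0.053 to 0.093. For gamma a it was -0.084 to -0.0092, nearest 0 without wildtype replicate 1, as for alpha, and for gamma b it changed sign, at -0.057 to 0.043. Per kb of unshared exon, the medians were 356 for alpha, 377 for gamma a, 181 for gamma b and 1339 for c-type genes, by the shorter length alone. Whole reads per gene are not known, so no counting interval is given, and reads of shared exons limit what single alpha and gamma values can show.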
